A study of Danio rerio with 2 samples.

Results

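Blood and lymphatic vessel genes were examined in whole zebrafish larvae that had been swim-trained or left untrained. The list held 38 genes, chosen by name as vascular receptors and their ligands, transcription factors, junction and surface proteins, scavenger receptors and Notch or arteriovenous genes. An array probe was paired with 30 of them, out of 12900 genes named on the array, and 28 were measured, meaning that 1 probe or more gave a signal well above background in both pools on both arrays. In these 28 genes the RNA of the trained pool differed little from that of the control pool. None was 1.5-fold or even 1.2-fold higher or lower on both arrays. Ratios of 20 members, or 71.4%, were opposite in sign on the arrays, against 53.6% of all measured genes.

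All fish were wild type zebrafish from a Wageningen wild type by Tubingen wildtype (Zod2) background, aged 10 days after fertilisation. Trained fish swam from day 5 to day 10 in sessions of 3 hours, and control fish were not trained. RNA was isolated from each of 10 fish per condition, 400 ng per fish was pooled, and 100 ng of each pool was labelled for 2-colour Agilent oligonucleotide arrays. The same 2 pools were hybridised on both arrays with the dyes exchanged, so array 1 carried the trained pool in Cy5 and array 2 carried it in Cy3. There was 1 pool per condition, so the spread between fish is not known and no difference could be tested.

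Endothelial cells line blood and lymphatic vessels. Vascular endothelial growth factors act on them through the receptors Kdr, Kdrl, Flt1 and Flt4, and angiopoietins act through the Tie receptors. Transcription factors of the Ets and SoxF families set their identity, Notch signalling separates arteries from veins, and Prox1 marks lymphatic fate. In a larva these vessels run through muscle, brain, gut and skin, and several of the genes are also active outside vessels.

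On the whole array, the median spot signal lay between 136 and 178.5 over local backgrounds between 24 and 82.5, and 71.3% to 84.2% of spots per channel were flagged as well above it. No spot was saturated. The number of arrays limits the precision. Of the endothelial markers, cdh5, fli1a, egfl7 and clec14a were measured, kdrl was well above background in 3 of 4 channels, and no probe was paired here with tie1 or pecam1. Bulk RNA of whole larvae cannot tell fewer endothelial cells from less RNA per cell.

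Levels are normalised intensities per pool and array in arbitrary units, and they include an offset of 50 that steadies dim spots. The level of 1 probe cannot be set against that of another. Averaged over the 4 channels, levels of the 28 measured members ran from 95.1 to 2512, and 11121 genes were measured in all. For 7 members, 25.0% of those measured, the level was under 150, so the offset made up a large part of it. This held for 16.8% of all measured genes, and a ratio of so dim a probe is pulled towards 0.

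**Figure D1:**
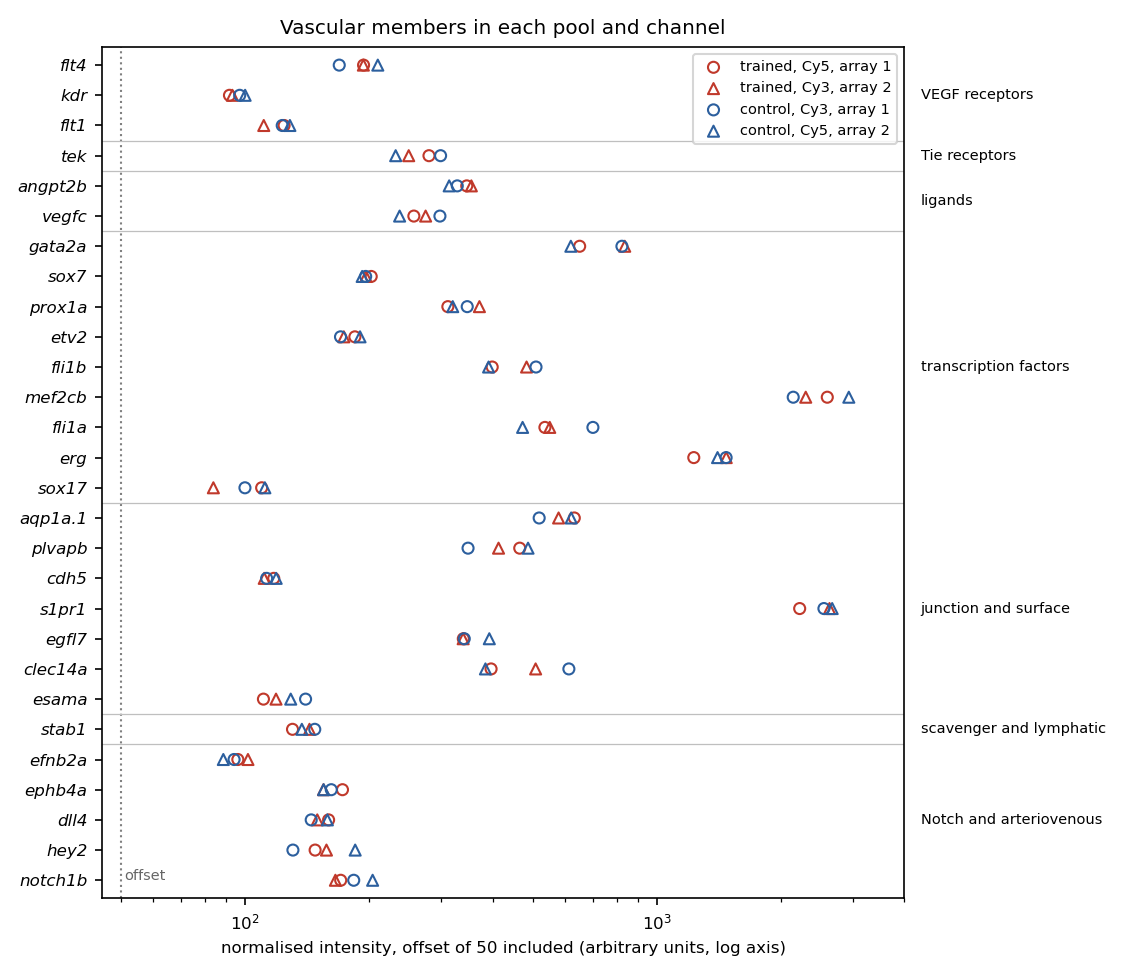
Normalised intensity (arbitrary units, log axis, offset of 50 included) of the brightest measured probe of each of 28 members, grouped by role, in the trained pool (red) and the control pool (blue) on array 1 (circles) and array 2 (triangles). The red and blue symbols of most genes are interleaved, and kdr, efnb2a, sox17 and cdh5 lie nearest to the offset.

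The counts can be read against all measured genes. None of the 28 members was at least 1.5-fold higher or lower on both arrays. Of 11121 measured genes 77 were, a share of 0.692%, with 0.638% higher and 0.054% lower. At a looser 1.2-fold none of the members passed either, against 566 genes or 5.09%. At such shares fewer than 1 and fewer than 2 members in 28 would pass, so the absence of passing members is near the background. The members' median log2 ratio of trained over control was -0.02, at 0.00 on array 1 and -0.05 on array 2, and the median over all measured genes was -0.00. Mean ratios ran from -0.23 for esama to 0.13 for angpt2b. In the main processing the mean ratio lay within 0.2 of 0 on the log2 scale for 26 of 28 members. That is 92.9%, against 76.3% of all measured genes. The members were dimmer, with a median level of 230.7 against 521.2 for all measured genes. The offset pulls dim ratios towards 0, but its part in the share of 92.9% was not tested. Under the deposited ratios several members lay beyond 0.2 in either direction, among them sox17 and kdr at -0.34 and stab1 at 0.21.

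**Figure D2:**
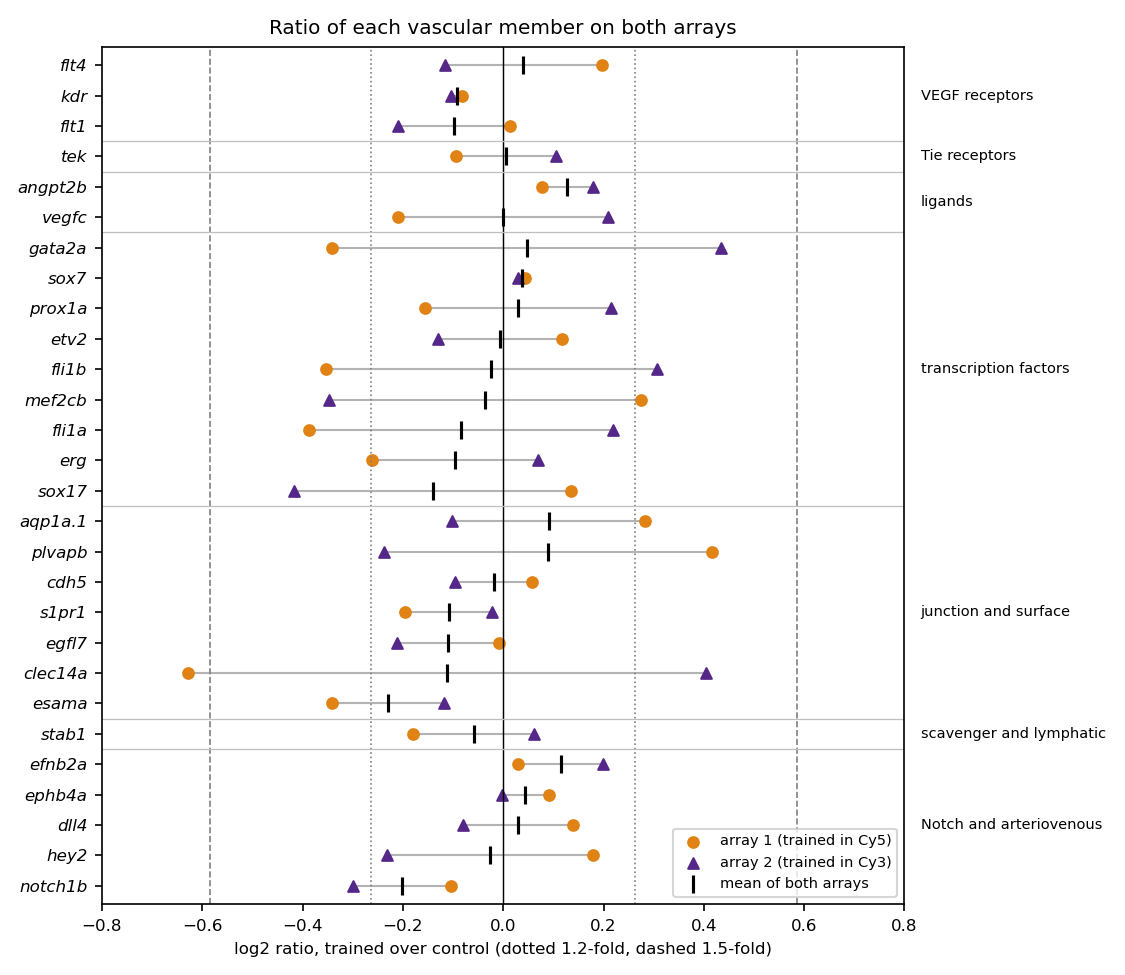
Log2 ratio of trained over control for each of 28 members by role, on array 1 (orange circles), on array 2 (purple triangles) and as the mean of both (black bars), with dotted lines at 1.2-fold and dashed lines at 1.5-fold. The black bars lie between -0.23 and 0.13, and the symbols of 20 genes fall on opposite sides of 0.

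Of 3 measured receptor genes of vascular endothelial growth factors 1 (33.3%) had the same sign on both arrays, against 46.4% of all measured genes. This was kdr, which encodes a receptor of endothelial growth signals and is 1 of a zebrafish pair with kdrl. Its level was 91.8 and 93.3 in the trained pool on arrays 1 and 2, and 97.2 and 100.2 in the control pool. Both trained values were below both control values. Here and for other members below, the values of a pool are repeat readings and not replicates. How many of all measured genes show such a separation was not computed. The log2 ratio was -0.08 on array 1 and -0.10 on array 2, a mean of -0.09 or 1.07-fold lower in the trained pool. The probe is dim, and the mean ratio was -0.34 under the deposited ratios. The other 2 kdr probes were well above background in no channel.

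The lymphatic and venous receptor gene flt4 had the widest gap between arrays among these receptors. Its level was 194 in the trained pool on both arrays, and 169.6 and 210.4 in the control pool. The trained values thus lay between the control values, and the log2 ratios were 0.20 and -0.12. For flt1, a receptor that can act as a decoy for the growth factor, the ratios were 0.01 and -0.21, a mean of -0.10 that was -0.30 under the deposited ratios. The brighter kdrl probe read 85.1 and 88.6 in the trained pool and 84.4 and 73.0 in the control pool, where the control pool on array 2 was not well above background, so no fold is given. The second kdrl probe was well above background in 2 of 4 channels.

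The angiopoietin receptor gene tek read 280.1 and 250.1 in the trained pool and 299 and 232.5 in the control pool. The array 1 values were the higher pair in either pool, and the log2 ratios of -0.09 and 0.11 cancelled to a mean of 0.01. A second probe of tek gave 0.06 and -0.25, so the signs on the arrays were exchanged.

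Among the ligands was angpt2b, which encodes an angiopoietin that modulates Tie receptor signalling. In the main processing, with the dyes exchanged as labelled, it had the highest mean ratio of all measured members. Its level was 346 and 355 in the trained pool, and 328 and 314 in the control pool. Both trained values were above both control values. The log2 ratios were 0.08 and 0.18, a mean of 0.13 or 1.09-fold, which was 0.06 under the deposited ratios. Under those ratios stab1 was the highest member at 0.21, and with an offset of 0 efnb2a was the highest at 0.25. No second probe was paired with it here.

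The lymphatic growth factor gene vegfc read 257 and 275 in the trained pool and 298 and 238 in the control pool. The pools overlapped, and the log2 ratios of -0.21 and 0.21 gave a mean of -0.00. Its second probe gave -0.00 and 0.04. No probe of angpt1, the ligand that activates Tek, was well above background in over 2 of 4 channels, and none was paired with vegfab.

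Of 10 listed transcription factor genes 9 were measured. Of these, 8 (88.9%) had opposite signs on the arrays, against 53.6% of all measured genes. The exception was sox7, a SoxF factor, with levels of 202.8 and 196.9 in the trained pool and 196.6 and 192.8 in the control pool. The log2 ratios of 0.04 and 0.03 were the closest pair among all measured members, and the mean corresponds to 1.03-fold. A second sox7 probe gave -0.08 and 0.24.

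The widest gap among the factors was that of gata2a, a zinc finger factor of endothelial, blood and nerve cells. It read 650.5 and 837 in the trained pool and 824 and 619 in the control pool, and whichever pool carried Cy3 was the brighter. The log2 ratios were -0.34 and 0.43, with a mean of 0.05. Its other probe was well above background in no channel.

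The Ets factor genes were opposite in sign on the arrays at their brightest probes. For fli1a, a general endothelial factor, the brightest probe gave -0.39 and 0.22, and for its paralogue fli1b the ratios were -0.35 and 0.31. The ratios of erg were -0.26 and 0.07, and those of etv2, which starts endothelial fate in the embryo, were 0.12 and -0.13. On array 1 fli1a, fli1b and erg were negative and etv2 was positive. The other measured fli1a probes had the same sign on both arrays, at -0.11 and -0.19 for 1 and at 0.05 and 0.02 for the other. The lymphatic factor gene prox1a gave -0.16 and 0.22, while mef2cb, also a heart and muscle factor gene, gave 0.27 and -0.35. For sox17 the ratios were 0.14 and -0.42, with a mean of -0.14, which was -0.34 under the deposited ratios.

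Of 7 measured junction and surface genes 3 were lower on both arrays, or 42.9%, against 22.1% of all measured genes. None was higher on both and 4 had opposite signs. Over all 28 measured members 5 were lower on both arrays, or 17.9%. Within this group esama encodes an adhesion molecule of endothelial cell contacts. Its mean ratio was the lowest of any measured member in the main processing, with the dyes exchanged as labelled. Its level was 111 and 119 in the trained pool, and 140.5 and 129 in the control pool, all under 150 with the offset included. Both trained values were below both control values. The log2 ratios were -0.34 and -0.12, a mean of -0.23 or 1.17-fold lower in the trained pool. Over 5 processing alternatives the mean ran from -0.38 to -0.14. Under the deposited ratios sox17 was the lowest member at -0.34, against -0.19 for esama. Without background correction notch1b was the lowest at -0.20, against -0.14 for esama. A second esama probe was well above background in only 2 of 4 channels, so no ratio is given for it.

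The sphingosine-1-phosphate receptor gene s1pr1, which stabilises vessels, read 2226 and 2630 in the trained pool and 2549 and 2670 in the control pool. The pools overlapped across arrays, and the ratios were -0.20 and -0.02, a mean of -0.11 that turned to 0.01 under the deposited ratios. The secreted endothelial factor gene egfl7 read 339.4 and 339.1 in the trained pool, and 341 and 392.5 in the control pool. The control values were the higher ones, by a very small margin on array 1, and the ratios were -0.01 and -0.21. The second egfl7 probe gave -0.31 and 0.48 and the other gave -0.12 and 0.07, so neither was lower on both arrays. Over the 5 alternatives its mean ran from -0.22 to -0.02.

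The endothelial C-type lectin gene clec14a had the widest gap of all measured members. It read 396 and 508.5 in the trained pool and 612 and 384 in the control pool. The pool in Cy3 was the brighter on either array, and the log2 ratios were -0.63 and 0.40, with a mean of -0.11. On array 1 alone clec14a was past 1.5-fold lower, where 4.48% of all measured genes were past 1.5-fold in either direction. On array 2 alone it was past 1.2-fold higher, where 29.4% of all measured genes were past 1.2-fold in either direction. No second probe was paired with it here. For cdh5, the vascular endothelial cadherin gene, the ratios were 0.06 and -0.10. The fenestral diaphragm gene plvapb gave 0.42 and -0.24, and the water channel gene aqp1a.1, also active in red cells, gave 0.28 and -0.10. A second plvapb probe gave -0.06 and 0.23, so the signs on the arrays were exchanged. A second aqp1a.1 probe was higher on both arrays, at 0.05 and 0.27, a mean of 0.16.

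Of the scavenger receptor and lymphatic genes only stab1 was paired with a probe. It encodes a receptor by which endothelial cells and macrophages clear waste. It read 130.6 and 143.6 in the trained pool and 148 and 138 in the control pool. The pools overlapped, and the log2 ratios were -0.18 and 0.06. The other 2 probes of stab1 gave -0.21 and 0.22, and -0.06 and 0.01. All 3 probes were thus negative on array 1 and positive on array 2. The mean of the brightest was -0.06, and 0.21 under the deposited ratios.

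The Notch and arteriovenous group held notch1b, a Notch receptor gene of arteries and other tissues. In the main processing, with the dyes exchanged as labelled, it had the second lowest mean ratio of the measured members. Its brightest probe read 171 and 166 in the trained pool, and 184 and 204 in the control pool. Both trained values were below both control values. The log2 ratios were -0.10 and -0.30, a mean of -0.20 or 1.15-fold lower. A second probe gave 0.18 and -0.09, and the mean over its measured probes was -0.08.

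The arterial ligand gene efnb2a read 96.2 and 101.8 in the trained pool, and 94.2 and 88.7 in the control pool. Both trained values were above both control values, and the ratios were 0.03 and 0.20, a mean of 0.11 or 1.08-fold, with 0.06 to 0.25 over the alternatives. The Notch target gene hey2, an arterial factor, read 148 and 158 in the trained pool and 131 and 185.4 in the control pool. The trained values lay between the control values, and the ratios were 0.18 and -0.23. Its second probe gave 0.06 and 0.07. The Notch ligand gene dll4 gave 0.14 and -0.08, and ephb4a, the venous receptor of ephrin B2, gave 0.09 and -0.00.

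In all, 3 members were higher on both arrays and 5 were lower, or 8 of 28 (28.6%) with the same sign. Over all measured genes 24.3% were higher on both arrays and 46.4% had the same sign. The members' direction was kept on both arrays in 4 of 5 processing alternatives for esama, notch1b, kdr and efnb2a. It was kept in 3 for angpt2b and s1pr1, in 2 for sox7 and in 1 for egfl7. For esama, kdr, efnb2a, angpt2b and s1pr1, each with 1 measured probe, the mean over probes repeated the main value. That 1 of the 5 alternatives could not change their direction. The gap between arrays had a median of 0.24 over the members and of 0.25 over all measured genes. The part of a ratio that follows the dye is the mean of Cy5 over Cy3 over both arrays. Over the members this part had an SD of 0.21, and the mean ratio had an SD of 0.09, each over 28 genes and on the log2 scale. Over all measured genes the SDs were 0.20 and 0.19. A 1.2-fold difference towards the same dye on both arrays was found for 4 members, or 14.3%, against 5.83% of all measured genes. None was 1.5-fold towards the same dye, against 0.575% of all measured genes. The 4 members were clec14a, fli1b and gata2a, brighter in Cy3, and mef2cb, brighter in Cy5.

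**Figure D3:**
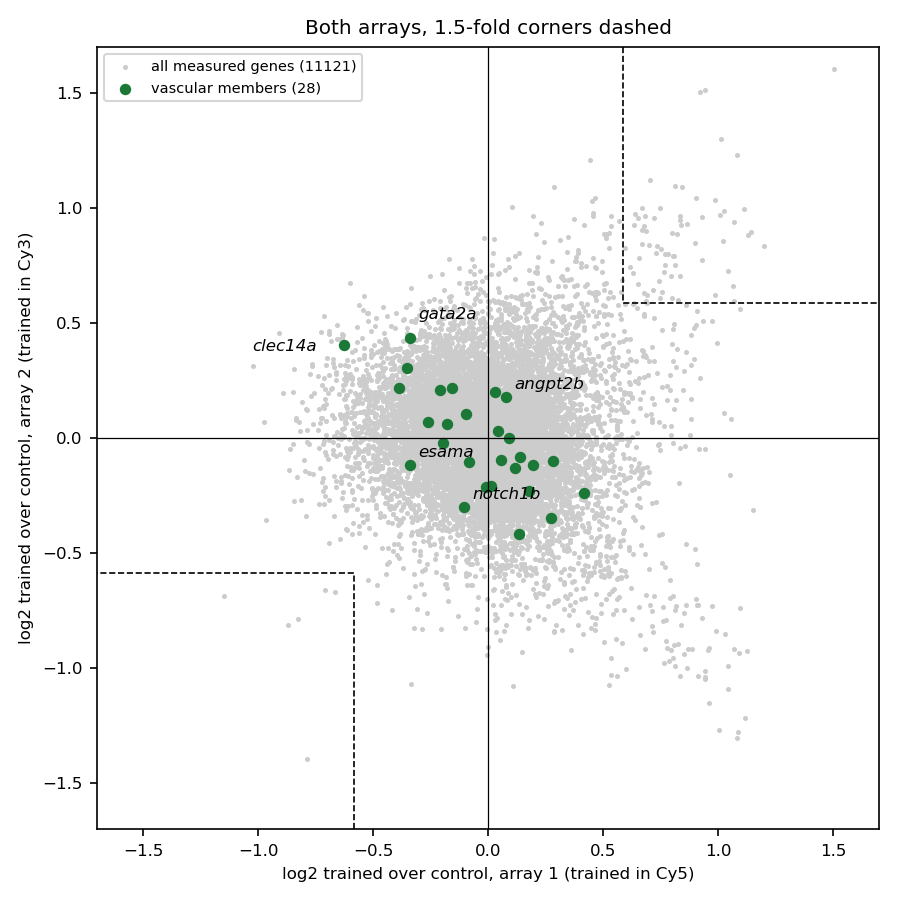
Log2 ratio of trained over control on array 1 (horizontal) against array 2 (vertical) for 11121 measured genes (grey) and 28 vascular members (green), with 1.5-fold corners dashed. No green point lies in a dashed corner, and clec14a and gata2a lie in the upper left, where the signs are opposite.

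The direction of every ratio follows the sample titles and channel labels, since the design text of the series names the same orientation for both arrays. The deposited value table also has array 2 turned to trained over control, as with an exchange of dyes. Without an exchange of dyes, the values given here as following the dye would hold the difference of the pools together with the dye effect. The mean would then be -0.11 for esama, 0.10 for notch1b and -0.05 for angpt2b, and the lowest and highest members would be clec14a at -0.52 and plvapb at 0.33. Pearson's r between array 1 and array 2 was -0.04 across 11121 genes. Between the brightest and the second probe of 6037 genes that had both, r was 0.61 for the mean ratio and 0.11 for the part following the dye. Genes are not independent replicates, and the probes share their pools and arrays.

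Further probes of the same gene gave a second reading of these small ratios. Of the 28 measured members 12 had 2 or more measured probes, with 15 probes beside the brightest. The mean ratio had the sign of the brightest probe in 6 of these 15, and so had the part following the dye in 6. Over all genes with 2 measured probes the second probe had the sign of the brightest in 65.8% for the mean ratio and in 53.1% for the part following the dye. The mean ratios of the probes of a member spanned a median of 0.09 and at most 0.25, for notch1b. The mean ratio of 15 of 28 members was smaller in size than that median span, which comes from the 12 members alone. The matching share over all measured genes was not computed.

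**Figure D4:**
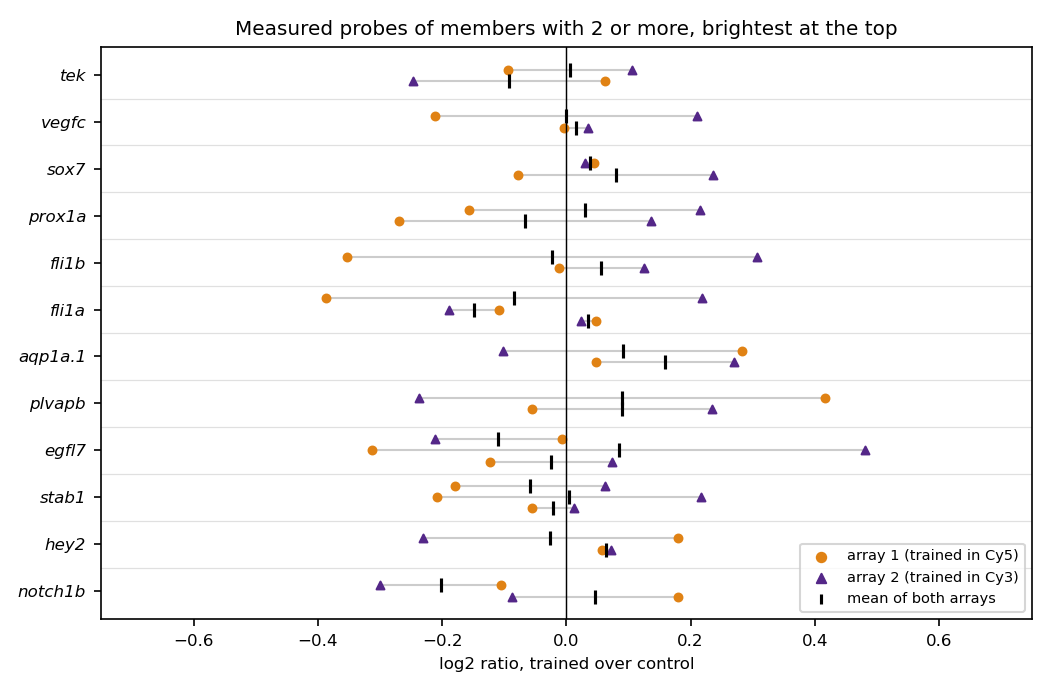
Log2 ratio of trained over control for each measured probe of the 12 members with 2 or more, on array 1 (orange circles), array 2 (purple triangles) and as their mean (black bars). The means of all probes lie above 0 for plvapb, aqp1a.1 and sox7 alone. Those of the other members lie on both sides of 0, with the widest spans for notch1b, egfl7 and fli1a.

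A wider list of 83 genes of endothelium, growth factor signalling, Notch and lymphatics was read the same way. Of 58 measured genes 14 were higher on both arrays, 10 were lower and 34 had opposite signs, with a median log2 ratio of -0.00. None was past 1.5-fold on both arrays. At 1.2-fold 2 were lower and none was higher, against 1.35% lower and 3.74% higher over all measured genes. The receptor gene notch3 had log2 ratios of -0.31 and -0.42, and her9, a Hes-family repressor gene, had -0.30 and -0.53. Over 5 processing alternatives notch3 ranged from -0.44 to -0.31 and her9 from -0.43 to -0.32, lower on both arrays in each. Either gene passed 1.2-fold on both arrays in 4 of the 5. Each had 1 measured probe, so 1 of the 5, the mean over probes, repeated the main value. A second notch3 probe was well above background in only 3 of 4 channels, and no second probe was paired with her9.

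Ranked by the smaller of the ratios on the arrays, the next lowest of the wider list were rbpja, which encodes the DNA-binding partner of Notch, at -0.34 and -0.21, and the endothelial claudin gene cldn5b at -0.17 and -0.71, whose mean of -0.44 was the lowest of the list. A second rbpja probe gave -0.01 and -0.32. By the same rank the highest were the homeobox gene hhex at 0.24 and 0.23, the Notch ligand gene dlc at 0.21 and 0.38, the growth factor co-receptor gene nrp1b at 0.19 and 0.17, and the sphingosine-1-phosphate transporter gene spns2 at 0.15 and 0.23. Other Notch genes lay between these. Mean ratios were -0.14 for notch2, -0.07 for notch1a, 0.00 for her6 and 0.05 for hey1, each opposite in sign on the arrays. Of the Notch ligand genes, jag1b at 0.03 and 0.24 and jag2b at 0.03 and 0.08 were higher on both arrays. The ligand gene jag1a was lower on both, at -0.15 and -0.22. A second measured probe of spns2 stood at -0.26 on average, opposite to its brightest. The other 2 probes of hhex stood at -0.03 and 0.10. Over the 5 alternatives nrp1b ran from -0.14 to 0.29, so its direction depended on the processing, and it was higher on both arrays in 3. A second nrp1b probe was well above background in only 3 of 4 channels. The brightest nrp1b probe was its only measured one, so the mean over probes repeated the main value. Over the same alternatives spns2 ran from -0.04 to 0.40 and was higher on both arrays in 4. Its lowest value was the mean over its measured probes, which differed in sign.

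Genes of other cells in the vessel wall and the blood were set beside these. Of 7 measured mural cell genes, which mark pericytes and smooth muscle, 4 were lower on both arrays, none was higher and 3 had opposite signs, with a median of -0.08. The shares over all measured genes were 22.1% lower, 24.3% higher and 53.6% opposite in sign, for these cells and the blood cells alike. The lower ones were notch3, already named, foxf2a at -0.30 on average, abcc9 at -0.18 and pdgfrb at -0.08. Over the 5 alternatives foxf2a ran from -0.91 to -0.30 and abcc9 from -0.60 to -0.18. Both probes are dim, with levels of 92.2 to 121.2 for foxf2a and 84.3 to 107.0 for abcc9, offset included. The level was under 150 for 3 of the 7 mural cell genes, or 42.9%, against 16.8% of all measured genes. The contractile genes acta2, tagln and myh11a had opposite signs. Of 8 measured red cell genes 2 were higher on both arrays, gata1a at 0.36 and slc4a1a at 0.23. A second slc4a1a probe gave 0.14 and 0.01. Of the other red cell genes 1 was lower, tfr1a at -0.16, and 5 had opposite signs, the globin genes hbae1.1, hbae3 and hbbe2 among them. Of 6 measured macrophage genes 4 were higher on both arrays, which were irf8 at 0.33, spi1b at 0.14, mpeg1.1 at 0.10 and lcp1 at 0.09, and csf1ra was lower at -0.15. The only measured thrombocyte gene, gp1bb, stood at -0.19, and a second probe of it gave -0.32 and 0.18. No gene of these lists was past 1.5-fold on both arrays, and notch3 alone was past 1.2-fold, against 5.09% of all measured genes. Under other processing gata1a and foxf2a passed 1.2-fold in 2 of 5 alternatives each, and abcc9 and irf8 in 1 each. Each of these had 1 measured probe, so the mean over probes repeated its main value.

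**Figure D5:**
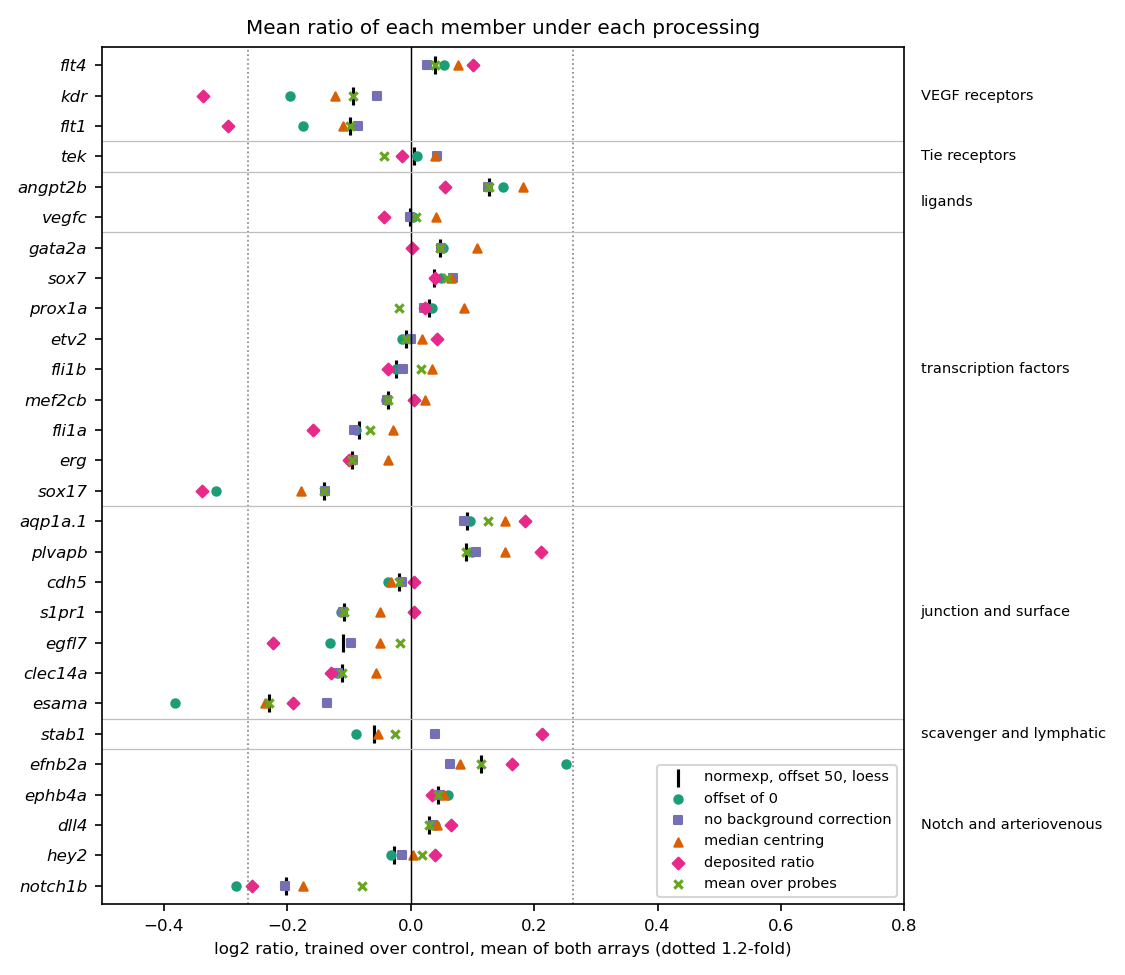
Mean log2 ratio of trained over control for each of 28 members by role under the main processing (black bars) and 5 alternatives (coloured symbols), with dotted lines at 1.2-fold. The values lie between -0.38 and 0.25, and those of kdr, flt1, sox17 and esama are spread widest towards lower values.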

How the data were processed

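The authors' scanner files hold median foreground and background intensity values of each spot per channel, per the file headers. Agilent Feature Extraction 10.5.1.1 was used, per the submitters' processing notes, and its deposited log10 ratio is Cy5 over Cy3. The deposited value table equals that log10 ratio with array 2 turned to trained over control. Other deposited columns used were flags of detection, saturation and outlier spots.

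The log2 ratios were rebuilt with limma 3.58.1 in R 4.3.3 from the deposited intensities. Steps were normexp with an offset of 50, loess within arrays with control and outlier spots at weight 0, the mean over a probe's spots, and the mean of both arrays with array 2 turned. Levels per pool followed Aquantile scaling. Of 43600 probes, 30886 were measured. The arrays are 1 technical dye swap, so no test or error over fish was computed.

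Symbols came from unversioned RefSeq accessions matched to a gene table of assembly GRCz12tu, which named 25171 probes. There fli1a, fli1b, etv2 and pecam1 stand as fli1, fli1rs, etsrp and pecam1a. No probe was paired with tie1, vegfab, sox18, pecam1, ecscr, she, stab2 or lyve1b. A gene is represented by its brightest measured probe. Members and lists were chosen with earlier results of these data known. The text describes in full the members past 1.5-fold, up to 6 highest and 6 lowest with the same sign on both arrays, and the widest gap in each role group. Of other lists it names the 4 highest and 4 lowest, and other genes were picked with their values in view. The size rule was tried on simulated data, with changes larger than the members' ratios and in bright probes only. It therefore does not cover small ratios or dim probes. Tables were made with Python 3.11.15, pandas 2.3.3 and numpy 2.4.6, and figures with matplotlib 3.10.9. Alternatives were an offset of 0, no background correction, median centring, the deposited ratios, a looser detection filter, the mean over probes, each array alone, and 1.2-fold and 2-fold thresholds.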

Additional observations from a re-analysis of the deposited data

How the results depend on the processing

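No paired analysis was possible because both arrays hold the same 2 pools and form 1 replicate. None of the measured members passed 1.5-fold on both arrays under the alternatives run on both arrays. With the dyes exchanged as labelled none passed 1.2-fold either, so none could pass 2-fold. The looser detection filter gave 29 measured members and left the ratios of the 28 unchanged. The wider list gave 0 at 1.5-fold under its 3 alternatives. With 1 array alone, 0 to 1 members passed 1.5-fold (clec14a on array 1), against 4.18% to 4.48% of all measured genes. On 1 array alone the median of the members ran from -0.051 to 0.0032. The median was 0.021 with median centring, where that of all genes was 0.036, and 0.0086 with the sign of array 2 not turned, an alternative chosen after seeing the data. It was -0.021 in the main processing, and the cause of these shifts was not tested. With that sign not turned, 4 of 28 members passed 1.2-fold, or 14.3%, against 5.83% of all measured genes. Of 28 members 18 kept the sign of their mean ratio in all 5 alternatives on both arrays and 10 did not. Where a member had 1 measured probe, the mean over probes repeated the main value and could not change the sign. In the wider list 2 to 4 of 58 measured genes passed 1.2-fold, over the main processing and its 3 alternatives. Under these settings 4.25% to 7.52% of all measured genes passed. The offset limits ratios of dim probes, and 1 pool per condition leaves the spread between fish unknown.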
